A study of Mus musculus with 2 samples.

Results

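Histone acetyltransferase complexes were examined subunit by subunit in sorted adipose tissue macrophages (ATM). The set held 47 genes, 11 catalytic and 36 accessory, listed by name as subunits of the SAGA/ATAC, NuA4, MOZ/HBO1, MSL/NSL and Elongator complexes, p300/CBP and others, and the rule that lists them uses no measured value. All 47 were among the 20330 gene identifiers of the table, and 45 reached the level needed for a comparison, 1 FPKM or more in either library. FPKM is the number of sequenced fragments per kilobase of transcript, scaled to the mapped fragments of the library, so levels can be compared between genes of different length.

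The WT library was made from hMRP8cre-;Hif-1αfl/fl;ApoE-/- animals and the KO library from hMRP8cre+;Hif-1αfl/fl;ApoE-/- animals, both on the C57BL/6 strain and both after 12 weeks of high-fat diet. By their labels both lacked ApoE and carried the loxP-flanked Hif-1α alleles, and the Cre transgene, driven by the human MRP8 promoter that is active in myeloid cells including neutrophils, was present only in KO. ATM were sorted from visceral fat with antibodies against F4/80 and CD11b. There was 1 library per genotype, whether it held 1 animal or a pool is not stated. The diet was begun at 4 weeks of age. A difference between the libraries therefore has no replicate check, and no p-value can be given.

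Histone acetyltransferases move the acetyl group of acetyl-CoA to lysines on histone tails, which loosens the contact of histones with DNA and makes docking sites for bromodomain proteins. Most of them work inside large complexes, where accessory subunits choose the histone, recruit the enzyme to promoters or hold the complex together. In macrophages they act with lineage and inflammatory transcription factors at enhancers and promoters, and p300 and CBP are also well-known coactivators of HIF-1.

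FPKM summed to 585823 in WT and 568329 in KO, with an estimated depth of about 5870000 and 7470000 fragments, taken from the smallest recurring FPKM step. Members above 0 rested on a median of 336 estimated fragments in WT and 366 in KO. Hif1a was at 30.4 in WT and 20.97 FPKM in KO, a gene-level value that does not isolate the loxP-flanked part, and Apoe was at 94.3 and 117 FPKM, so the gene-level value does not show the loss that both labels give. The disrupted part of neither gene was analysed here. Adgre1 (F4/80) was at 299 and 239 FPKM and Itgam (CD11b) at 128 in both, and 9 of 10 macrophage markers were in the table, summing to 11972 and 12013 FPKM with none past 3-fold. Of 9 neutrophil markers 8 were in the table, 5 above 0 in WT and 6 in KO, summing to 158 and 521 FPKM, with Camp and Ltf at 0 in both libraries. Most of both sums came from S100a8, at 73.3 in WT and 182 FPKM in KO, and S100a9, at 63.4 and 301. The 6 markers compared all had larger values in KO. Of these 2 (S100a9 and Ngp) were past 3-fold, where 13.6% of all genes compared were 3-fold higher. Fibroblast markers summed to 43.2 and 83.9 FPKM, eosinophil markers to 6.50 and 33.1, and dendritic cell markers to 2.18 and 9.54. B cell markers summed to 2.75 and 6.46, endothelial markers to 14.2 and 16.1, and mesothelial markers to 0 and 7.84. In some lists the markers did not all go the same way. Zbtb46 (dendritic cell) was at 0 in WT and 9.45 FPKM in KO. Xcr1 went the other way, at 1.65 and 0.06, as did Ccr7, at 0.53 and 0. Cd79b (B cell) was at 0 and 5.52 FPKM, but Cd79a at 2.50 and 0.22. Siglecf, Epx and Prg2 (eosinophil) and Msln, Krt19 and Lrrn4 (mesothelial) were at 0 in both. The 5 adipocyte markers summed to 22.6 and 21.7 FPKM, with Adipoq and Plin1 at 0 in both. Cidec was at 5.83 in WT and 0 in KO, past 3-fold, while Lep was at 0 and 1.60 and Lipe at 16.8 and 20.1. The 3 measured T cell markers were at 0 in both. The part of these other cell types in the member values below was not tested. In sorted cells measured in bulk, fewer cells of a type and less RNA per cell cannot be told apart.

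Differences are given as the change, log2(FPKM + 1) of KO minus WT, and genes were called higher or lower in KO from a 3-fold difference on this scale, a change of 1.58 or more in size. The added 1 understates the change of genes at low levels. At this threshold 5 of the 45 members were higher in KO, where 13.6% of all 10297 genes compared were higher, and 3 were lower, where 13.7% of all genes were lower. In all 8 members, or 17.8%, passed in either direction, against 27.3% of all genes. The median change was 0.10 over the members and 0.03 over all genes, with 25 members on the positive side and 20 on the negative. The median size of the change was 0.63 for members and 0.87 for all genes, and 31 members (68.9%) lay within 2-fold, against 54.4% of all genes.

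Of the 8 members past the threshold, 7 were listed at 0 in a library. Among all genes, 52.1% of those called higher were listed at 0 in WT and 45.3% of those called lower were listed at 0 in KO. The higher members were Dmap1, Ing3, Meaf6, Kat8 and Elp4, all listed at 0 in WT, and the lower ones were Ing4, which was measured in both libraries, and Elp2 and Ing2, which were listed at 0 in KO. The 5 higher members and Ing2 are among the genes the study singled out on these same libraries, so their direction is not independent evidence. Leaving out those 6 genes takes away all 5 higher members by construction, and 2 of the other 39 were lower, against 13.7% of all genes. Among the 37 members with 1 FPKM or more in both libraries, 1 passed the threshold (2.70%), against 11.5% of 7586 such genes. A value of 0 in a Cufflinks table can be a failed estimate, so these genes are described as listed at 0, and no fold is given for them. The size of their change depends on the pseudocount.

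**Figure D1:**
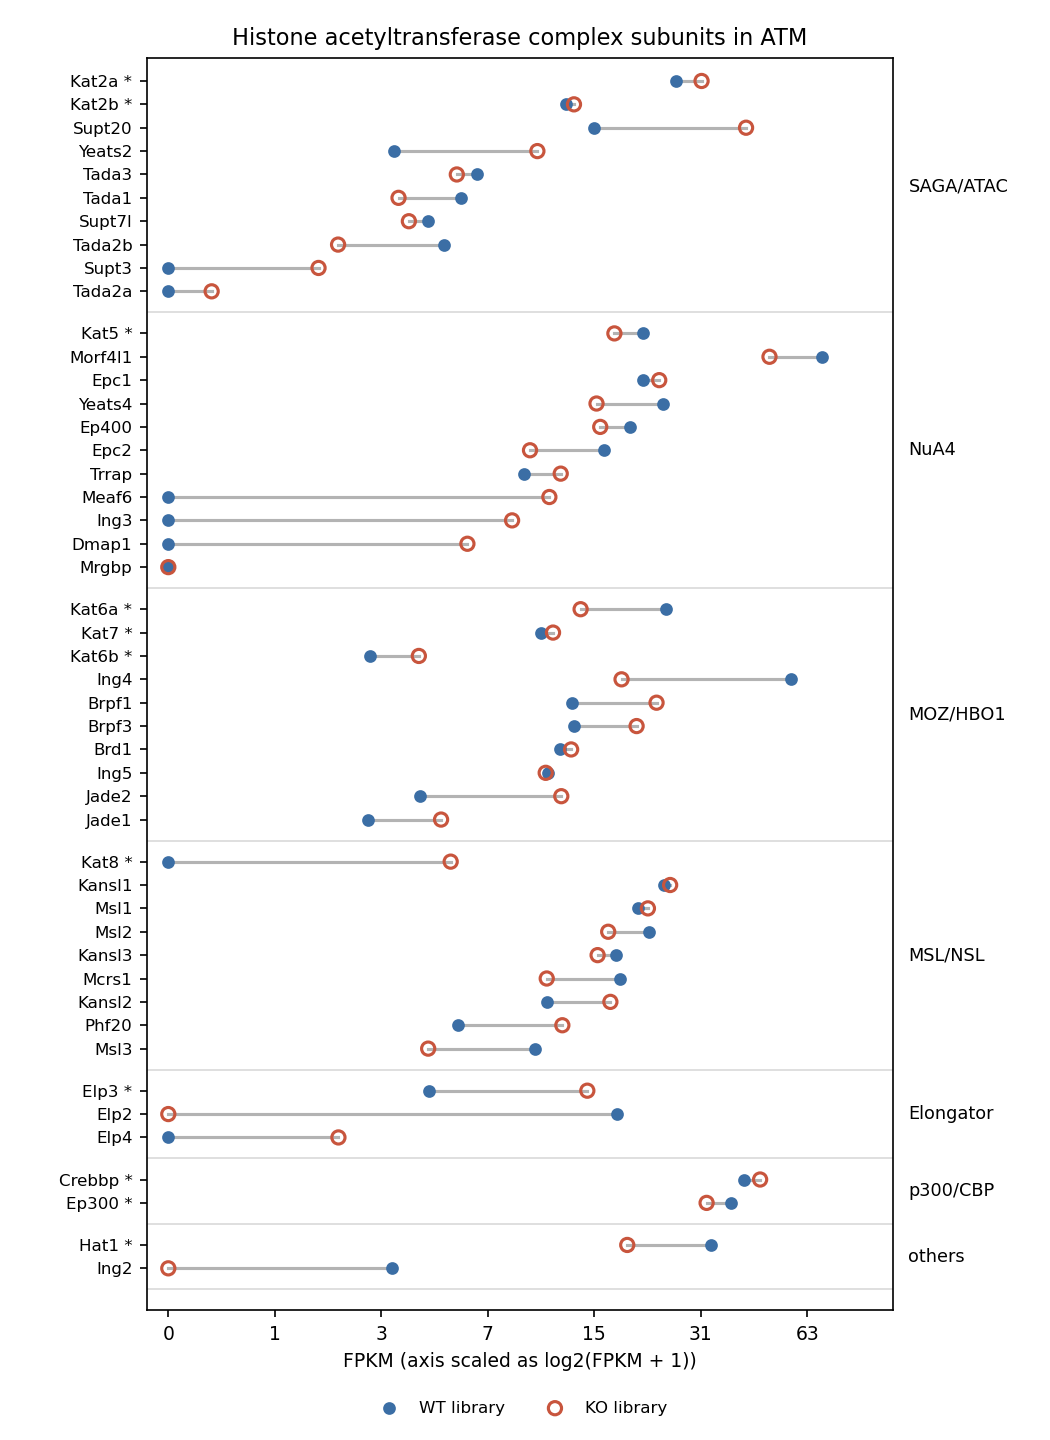
FPKM of each of the 47 subunits in the WT library (filled) and the KO library (open), grouped by complex, on an axis scaled as log2(FPKM + 1), with catalytic subunits marked by an asterisk. The longest lines belong to Elp2, Meaf6, Ing3, Dmap1, Kat8 and Ing2, which were listed at 0 in 1 library.

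The promoters of the 3 NuA4 subunits called higher, and of Kat8, the only catalytic subunit called higher, are shown because they make up 4 of the 5 higher members. Sequences are from RefSeq on GRCm38.p6, each running from upstream of the annotated gene start to just past it, 5′ to 3′ along the gene. Capitals mark ACGTG or GCGTG on either strand, the core letters bound by HIF-1, read on the other strand as CACGT or CACGC. The windows are chr4:117682176-117682475 for Dmap1 (minus strand), chr6:21949321-21949620 for Ing3 (plus strand), chr4:125084884-125085183 for Meaf6 (plus strand) and chr7:127912267-127912566 for Kat8 (plus strand).
Dmap1: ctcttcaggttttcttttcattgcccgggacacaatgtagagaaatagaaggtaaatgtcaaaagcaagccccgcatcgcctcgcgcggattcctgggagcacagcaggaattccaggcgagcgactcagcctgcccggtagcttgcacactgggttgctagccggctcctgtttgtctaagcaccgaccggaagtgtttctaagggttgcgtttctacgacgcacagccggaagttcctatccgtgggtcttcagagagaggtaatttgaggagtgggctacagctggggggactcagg
Ing3: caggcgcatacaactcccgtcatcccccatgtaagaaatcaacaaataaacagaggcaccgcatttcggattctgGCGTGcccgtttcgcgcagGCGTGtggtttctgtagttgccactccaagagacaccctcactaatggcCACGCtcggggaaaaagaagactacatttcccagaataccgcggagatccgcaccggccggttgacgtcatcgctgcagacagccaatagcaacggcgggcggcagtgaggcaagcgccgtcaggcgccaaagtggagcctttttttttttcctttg
Meaf6: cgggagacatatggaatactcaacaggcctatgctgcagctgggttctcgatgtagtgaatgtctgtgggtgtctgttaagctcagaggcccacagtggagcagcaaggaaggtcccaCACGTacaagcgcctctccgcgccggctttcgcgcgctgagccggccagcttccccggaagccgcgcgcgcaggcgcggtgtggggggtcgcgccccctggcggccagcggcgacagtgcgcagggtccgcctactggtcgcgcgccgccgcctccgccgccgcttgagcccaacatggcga
Kat8: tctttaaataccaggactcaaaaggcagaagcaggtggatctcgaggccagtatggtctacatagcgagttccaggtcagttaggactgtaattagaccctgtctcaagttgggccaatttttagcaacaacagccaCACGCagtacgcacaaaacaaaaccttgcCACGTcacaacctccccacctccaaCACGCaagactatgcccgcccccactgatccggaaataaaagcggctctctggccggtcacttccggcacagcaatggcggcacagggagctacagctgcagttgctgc

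The Dmap1 window held neither word, Ing3 held 3 matches, Meaf6 held 1 and Kat8 held 3. Of the 41 members with a promoter in the RefSeq table, 8 held ACGTG (19.5%), against 26.5% of the 8120 compared genes with a promoter and 19.7% of all 27025 promoters. GCGTG was in 22 members (53.7%), against 52.2% of compared genes and 32.5% of all promoters. At least 1 of these 2 words was in 25 members (61.0%), against 64.1% of compared genes and 43.8% of all promoters. A match in most of the windows shown is thus common among compared genes. CCGGAAG, the core bound by many ETS factors, was in 12 members (29.3%), against 19.3% and 9.12%. The members' promoters had a median GC content of 63.7%, against 61.0% in compared genes and 52.7% overall. Promoters of Elp2, Elp3, Tada1, Epc1, Jade2 and Kat6a were not used here. A match describes letters in a window and not a bound site.

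SAGA and ATAC share the enzymes GCN5 and PCAF and acetylate mainly histone H3. Where 2 values follow a gene, the first is WT and the second KO. Kat2a (GCN5) was at 26.3 in WT and 31.2 FPKM in KO, and Kat2b (PCAF) at 12.3 and 13.0. The enzymes of this module were thus close to equal in both libraries, with changes of 0.24 and 0.08. Tada3, an adaptor shared by both complexes, was at 6.45 and 5.54 FPKM. Supt7l, a core subunit of SAGA, was at 4.42 and 3.79 FPKM. Tada1, another core subunit, was at 5.71 and 3.47 FPKM. These 3 differed by no more than 0.58 on the log2 scale.

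Tada2b, the adaptor of SAGA, was at 5.00 in WT and 2.02 FPKM in KO (change -0.99). Tada2a, its ATAC counterpart, was listed at 0 in WT but reached 0.326 FPKM in KO and was not compared. Supt20, which holds SAGA together, was at 14.9 and 41.96 FPKM, a change of 1.43. Yeats2, the ATAC subunit that reads acylated lysine, was at 3.34 and 10.05 FPKM, a change of 1.35. Both lay under the threshold, though Yeats2 was past 3-fold on the plain FPKM ratio. Supt3, a SAGA subunit related to TFIID proteins, was listed at 0 in WT but reached 1.66 FPKM in KO, from an estimated 18.7 fragments. None of the 9 SAGA/ATAC subunits compared passed the threshold, which 27.3% of all genes did, and their median change was 0.08.

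NuA4, the TIP60 complex, acetylates histones H4 and H2A. Its enzyme Kat5 (TIP60) was at 20.9 in WT and 17.2 FPKM in KO (change -0.26). Trrap, the scaffold that binds activators and is shared with SAGA, was at 9.12 and 11.9 FPKM. Ep400, the ATPase that exchanges histone variants, was at 19.2 and 15.6 FPKM. All 3 large core components differed by 0.35 or less in size. Epc1, one of a pair of alternative platform subunits, was at 20.9 and 23.4 FPKM, and Epc2, the other, was at 16.0 and 9.53. Yeats4 (GAS41), an acetyl-lysine reader, was at 24.1 and 15.2 FPKM, a change of -0.63. Morf4l1 (MRG15), which binds methylated histone H3, was the most abundant member in both libraries, at 69.5 and 49.0 FPKM.

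The remaining NuA4 subunits were listed at 0 in WT. Dmap1, which links NuA4 to DNA methyltransferase partners, was at 6.01 FPKM in KO, from an estimated 70.2 fragments. Ing3, whose PHD finger reads methylated histone H3, was at 8.37 FPKM in KO, from an estimated 237 fragments, or 107 with the median in place of the longest coding transcript. Meaf6, a small subunit also found in MOZ/MORF and HBO1 complexes, was at 10.9 FPKM in KO, from 372 or 71.2 fragments by the same rule. At the KO level, Dmap1 would have had about 55.2 fragments in the WT library. Mrgbp, the partner of Morf4l1, was listed at 0 in both libraries and not compared. NuA4 had 3 of 10 compared subunits higher (13.6% of all genes were) and none lower (13.7% of all genes were). In either direction 30.0% were called, against 27.3% of all genes, and the median change was -0.05. With 1 FPKM or more in both libraries, 7 subunits remained and their median was -0.28.

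MOZ and MORF are held together by BRPF scaffolds and HBO1 by BRPF or JADE scaffolds, each with a small ING subunit. Kat6a (MOZ) was at 24.5 in WT and 13.6 FPKM in KO (change -0.80). Kat6b (MORF) was at 2.72 and 4.11 FPKM, a change of 0.46. Kat7 (HBO1) was at 10.3 and 11.2 FPKM. None of these enzymes passed the threshold, which 11.5% of all genes with 1 FPKM or more in both libraries did, and the first was lower and the second higher in KO. Brpf1, a scaffold that tethers MOZ and MORF, was at 12.9 and 22.99 FPKM, and Brpf3, which prefers HBO1, was at 12.99 and 20.1. Brd1 (BRPF2) was at 11.8 and 12.8 FPKM. Jade1, an HBO1 scaffold, was at 2.66 and 4.90 FPKM. Jade2, its relative, was at 4.16 and 11.9 FPKM, a change of 1.32. None of these 5 scaffolds passed the threshold either, and their changes ran from 0.10 to 1.32.

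Ing4 was the only member with 1 FPKM or more in both libraries that passed 3-fold on the log2(FPKM + 1) scale. It encodes a PHD-finger subunit of HBO1 and lies on GRCm38 chromosome 6, from 125039760 to 125049265. It was at 56.5 in WT and 18.1 FPKM in KO, from an estimated 540 and 220 fragments. Its change of -1.59 lay just past the threshold of 1.58, and it fell short of it when the libraries were scaled to the same FPKM sum (-1.55) or upper quartile (just short, at -1.58) and when the trend with length was removed (-1.51). Ing5, the related subunit of MOZ and HBO1, was at 10.8 and 10.7 FPKM. Of 10 MOZ/HBO1 subunits 1 was lower (13.7% of all genes were) and none was higher (13.6% of all genes were), and the median change was 0.28. With Meaf6 counted here too, 1 of 11 was higher and 1 lower and the median was 0.46, and at a mean of 5 FPKM or more, without it, the median was 0.11.

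MSL and NSL both use MOF, encoded by Kat8, to acetylate histone H4. Kat8 was listed at 0 in WT but reached 5.28 FPKM in KO, from an estimated 62.3 fragments. At that level it would have had about 49.0 fragments in the WT library. The MSL scaffold Msl1 was at 20.2 and 21.7 FPKM, the ubiquitin ligase Msl2 at 21.8 and 16.5, and Msl3, a chromodomain reader, at 9.89 and 4.43. Of these only Msl3 reached 2-fold. In NSL, the scaffold Kansl1 was at 24.2 and 25.2 FPKM, Kansl2 at 10.7 and 16.8, and Kansl3 at 17.5 and 15.3. Mcrs1 was at 17.95 and 10.7 FPKM. Phf20, which reads methylated lysine, was at 5.59 and 11.995 FPKM, a change of 0.98. The 8 partners of Kat8 had 1 FPKM or more in both libraries and none passed the threshold, which 11.5% of all such genes did.

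Elongator carries an acetyltransferase-like subunit but is best known for modifying wobble uridines of tRNA. Elp3, the catalytic subunit, was at 4.45 in WT and 14.3 FPKM in KO (change 1.49). It lay under the threshold, though past 3-fold on the plain FPKM ratio, at 3.21. Elp2, a WD-repeat subunit of the core, was at 17.6 FPKM in WT, from an estimated 357 fragments, and listed at 0 in KO. Elp4 (GRCm38 chromosome 2, 105701027 to 105904564), of the accessory ring, was listed at 0 in WT but reached 2.03 FPKM in KO, from an estimated 46.1 fragments, or 29.4 at the median transcript length. The members thus split in direction.

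p300 and CBP act as general coactivators with broad histone targets. Ep300 was at 37.95 in WT and 32.2 FPKM in KO (change -0.23). Crebbp was at 41.3 and 46.1 FPKM, a change of 0.15. These were the most abundant enzymes of the set and differed little between the libraries. Hat1, which acetylates newly made histone H4 before it is placed on DNA, was at 33.1 and 18.8 FPKM, a change of -0.78. Ing2 (GRCm38 chromosome 8, 47667178 to 47675556), better known from Sin3 deacetylase complexes than from acetyltransferases, was at 3.29 FPKM in WT, from an estimated 54.3 fragments, and listed at 0 in KO.

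Catalytic and accessory subunits were set side by side. Of 11 enzymes 1 passed the threshold (Kat8), with a median change of 0.11 and a median size of change of 0.26. Of 34 accessory subunits compared 7 passed, with a median change of 0.08 and a median size of 0.69. These shares, 9.09% and 20.6%, both lay under the 27.3% of all genes. The enzymes were also the more abundant in both libraries, at a median of 20.9 FPKM in WT and 14.3 in KO against 10.8 and 11.4, and no test of the difference was made. Among members above 0 in both libraries, Ing4 lay just inside the threshold at -1.59, and Elp3 and Supt20 lay just outside at 1.49 and 1.43. Elp4 and Supt3, listed at 0 in WT, lay next to it on either side, a place set by the pseudocount.

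**Figure D2:**
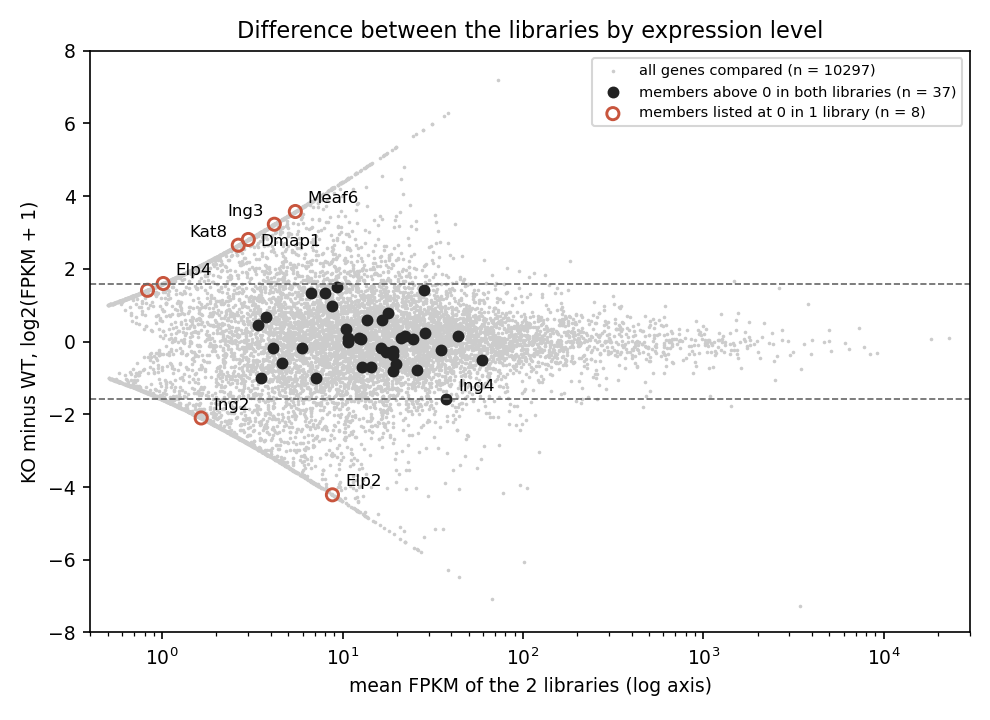
Change, KO minus WT on the log2(FPKM + 1) scale, against mean FPKM on a log axis, for all 10297 genes compared (grey), the 37 members above 0 in both libraries (black) and the 8 compared members listed at 0 in 1 library (open circles). Dashed lines mark 3-fold, and of the black points only Ing4 lies past them.

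The share of genes past 3-fold depended on level. It was 54.1% of all genes at a mean of 1 to 5 FPKM, where 5 of 10 members passed, and 32.4% at 5 to 10 FPKM, where 2 of 8 did. At 10 to 20 FPKM it was 20.6%, and 0 of 16 members passed. At 20 to 50 FPKM it was 11.7%, and 1 of 9 members passed. The members' shares thus lay at or below those of genes of like level in each of these bins. The share listed at 0 followed the same order. In WT 11.8% of the genes with 5 to 10 FPKM in KO had a listed value of 0, and of the 5 members at that level 3 did (Dmap1, Ing3 and Kat8). These 3 are among the genes the study singled out on these same libraries, so their share is not independent evidence. At 10 to 20 FPKM in KO it was 6.27% of genes and 1 of 20 members (Meaf6). At 10 to 20 FPKM in WT, 5.65% of genes and 1 of 13 members (Elp2) were listed at 0 in KO. The longest coding transcript had a median length of 2930 nt over the 8 compared members listed at 0 in a library. It was 4593 nt over the members above 0 in both and 3111 nt over all genes compared.

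**Figure D3:**
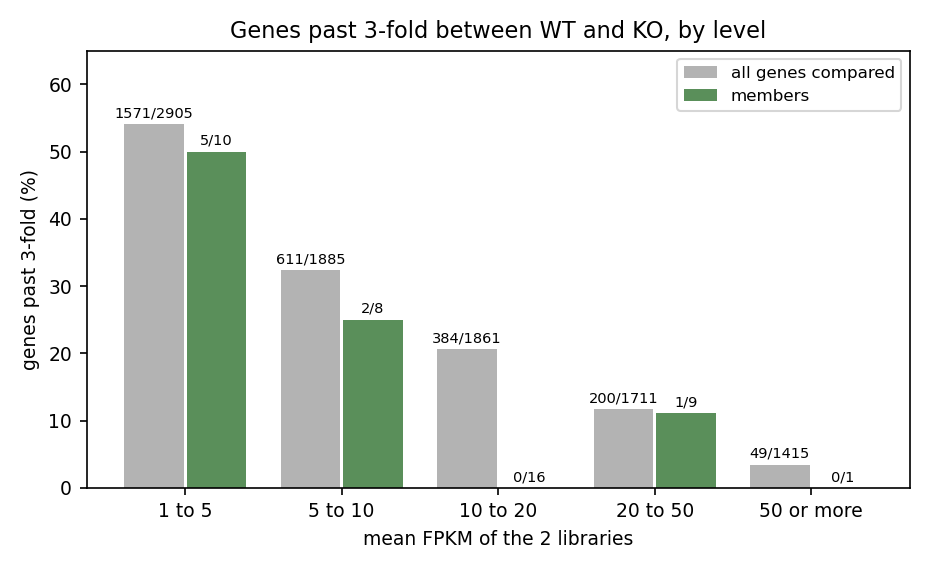
Percent of genes past 3-fold between WT and KO, in bins of mean FPKM, for all genes compared (grey) and for the members (green), with counts above the bars. Both shares are highest at 1 to 5 FPKM, and no member passed at 10 to 20 FPKM.

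Related genes kept their order of abundance in most cases. The rank order of levels was also alike in the 2 libraries over all genes. With 1 FPKM or more in both libraries, the Spearman rank correlation was 0.79 over all genes and 0.78 over the members. The share of other gene pairs that kept their order was not computed, so a kept order is not shown to be particular to paralogues. Of the 9 pairs of paralogues with both genes above 0 in both libraries, 8 had the same gene higher in WT and KO, and 3 of the 9 pairs share genes of the Brpf1, Brpf3 and Brd1 family. Kat6a exceeded Kat6b at 24.5 against 2.72 FPKM in WT and 3.32-fold in KO, and Ing4 exceeded Ing5 5.23-fold and 1.70-fold. These pairs drew closer in KO. Kat2a exceeded Kat2b 2.14-fold and 2.39-fold, Epc1 exceeded Epc2 1.30-fold and 2.46-fold, and Jade2 exceeded Jade1 1.56-fold and 2.43-fold. Crebbp exceeded Ep300 1.09-fold in WT and 1.43-fold in KO. Only Brpf1 and Brpf3 changed order, and they were within 1.01-fold in WT and 1.15-fold in KO. Reads shared between close paralogues could move such ratios, and how they were assigned is not given in the sources used here.

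**Figure D4:**
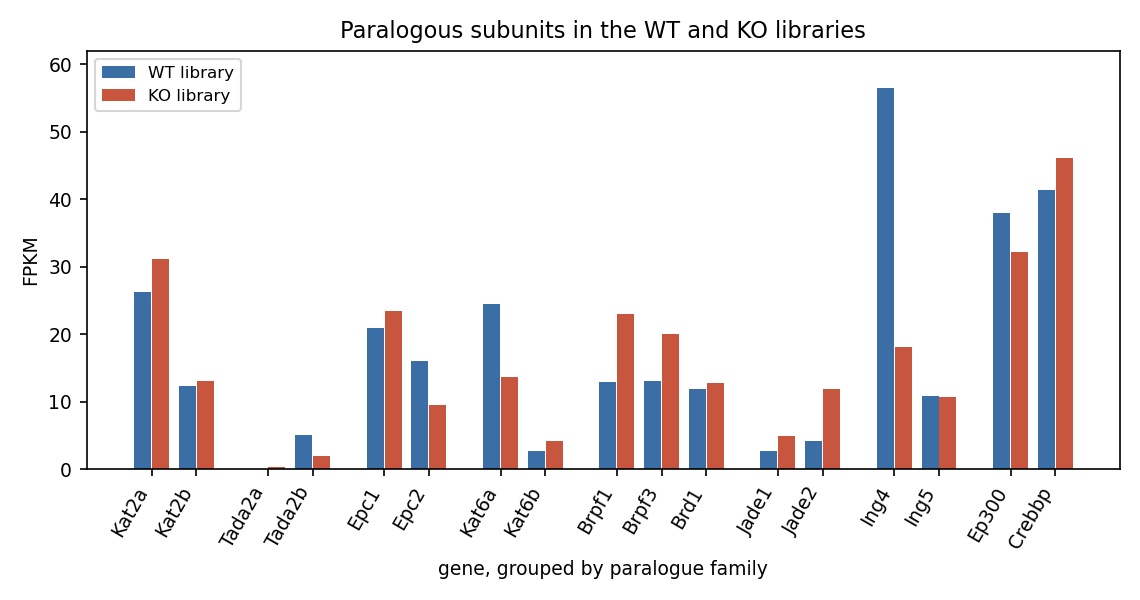
FPKM of paralogous subunits in the WT library (blue) and the KO library (red), grouped by family. Kat6a and Ing4 are the higher genes of their families in both libraries and stand further above their relatives in WT.

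Some members share exon sequence with a neighbour on the opposite strand, and whether counting used strand is not given. Kat5 shares 12.1% of its exonic length with Rnaseh2c, Tada1 shares 25.6% with Pogk and Tada2b shares 10.8% with Grpel1. Supt20 shares 10.3% with Gm21958, for which no value was available. Grpel1 was at 12.2 in WT and 2.99 FPKM in KO, lower like Tada2b. Rnaseh2c was at 20.4 and 54.6 FPKM and Pogk at 8.80 and 13.7, the opposite direction to Kat5 and Tada1. For these members the values of the neighbour and of the member cannot be told apart in the shared exons.

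A list of 31 other subunits of these complexes was read beside the members. Of 28 compared, 4 were higher and 1 lower in KO (17.9%, against 27.3% of all genes), with a median change of 0.39. Taf12, a histone-fold subunit shared by SAGA and TFIID, was at 4.90 in WT and 41.5 FPKM in KO (change 2.85). Sgf29, the SAGA and ATAC reader of methylated histone H3, was at 9.08 and 54.6 FPKM, a change of 2.46. Ruvbl2, an AAA+ ATPase of NuA4, was at 19.9 and 2.80 FPKM, a change of -2.46. Brd8, a NuA4 bromodomain subunit, was at 1.19 and 6.06 FPKM, a change of 1.69. Ogt, the O-GlcNAc transferase of NSL, was at 11.3 and 33.0 FPKM, and Morf4l2, a relative of Morf4l1, at 72.9 and 27.3. Both lay under the threshold. Mbip, an ATAC subunit, was listed at 0 in WT but reached 3.44 FPKM in KO, and Atxn7l2 was listed at 0 in WT and at 0.22 in KO.

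Of 18 histone deacetylases and sirtuins, the enzymes that take acetyl groups off, 14 were compared, with 1 higher, 2 lower (21.4%, against 27.3% of all genes) and a median change of 0.20. Those past the threshold, named after their values were seen, were Sirt6, listed at 0 in WT but at 10.2 FPKM in KO, Hdac1, at 24.1 in WT and 0.21 FPKM in KO, and Hdac7, at 2.48 FPKM in WT and listed at 0 in KO.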

How the data were processed

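Poly(A) RNA of ATM was sequenced as 1 WT and 1 KO library. The authors deposited 1 table of FPKM values, and the submitters' processing notes name CASAVA 1.8.2, TopHat2 2.0.9, Cufflinks 2.2.1 and the mm9 build. The mutant column was read as the KO library, since the labels hold no other library besides WT. Of 20749 rows, 401 full repeats were dropped and 18 further rows summed by identifier, leaving 20330, and GENCODE M21 (GRCm38) gave symbols for 98.5% of these. It was also the source of lengths and exon overlaps. Those do not describe mm9. FPKM values are not counts, so no count model was used, and with 1 library per genotype no test was made.

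The length of a gene was that of its longest coding transcript, since the median gave implausibly short lengths for genes with many fragments annotated as transcripts. One fragment was taken as the lowest value of FPKM times kilobases at which at least 10 single-transcript genes fell within a 1.25-fold window, 0.170 in WT (19 genes, 2 below it) and 0.134 in KO (20 genes, none below it). The procedure was tested on simulated data, and the minimum was lowered to 10 genes after some simulated draws failed with a higher one, which left both steps of the real libraries as they were. If a listed 0 is a true count, it allows up to 3 fragments, or 0.112 to 0.339 FPKM for the 9 members listed at 0 in 1 library. Shorter transcripts would raise this limit, to 0.586 FPKM for Meaf6 at its median length, and a failed estimate sets none. Fragment numbers cover counting error only.

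The members and lists were chosen with earlier results of these data known. All members are named. A further subunit of these complexes is not reported here. From the other subunits, up to 6 with the largest change at 1 FPKM or more in both libraries and up to 6 of the highest listed at 0 in 1 library were named. Alternatives were pseudocounts of 0.1 and 0.01, other filters, a 2-fold threshold, the FPKM ratio, other scalings, a length correction, the highest of repeated rows, shared subunits counted in both complexes and leaving out the genes the study singled out. Python 3.11.15, pandas 2.3.3, numpy 2.4.6 and scipy 1.17.1 were used.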

Additional observations from a re-analysis of the deposited data

How the results depend on the processing

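No paired analysis was possible because WT and KO were sequenced once each. The 5 members higher in KO became 8 with a pseudocount of 0.01 or on the FPKM ratio, 10 at a 2-fold threshold, 1 at a mean of 5 FPKM or more, and 0 with 1 FPKM or more in both libraries or without the genes the study singled out. Called members in both directions were 24.4%, 24.4%, 31.1% and 8.82% with the pseudocount of 0.01, the FPKM ratio, the 2-fold threshold and the mean of 5 FPKM, against 37.0%, 37.1%, 45.6% and 18.1% of all genes. The 3 lower members became 1 with 1 FPKM or more in both libraries. That filter removes the members listed at 0. Of 34 values of the main counts and the median, 27 stayed within the allowance (1.5-fold for counts, 0.1 for the median) and 7 moved. Of 74 complex and role medians 63 stayed and 11 moved, and signs changed with 1 FPKM or more in both libraries for SAGA/ATAC (-0.05), MSL/NSL (-0.06) and accessory subunits (-0.02), at a mean of 5 FPKM or more for MSL/NSL (-0.06) and Elongator (-1.36), and with the same FPKM sum for p300/CBP (0.00). Of 386 values of single members 370 stayed within 1.5-fold and 16 moved. The 16 were those of the 8 compared members listed at 0 in a library, with pseudocounts of 0.1 and 0.01. A filter leaves the change of a member as it is, so values under other filters could not move. Those with the highest of repeated rows were identical to the main ones. The 370 therefore overstates how far single values were put to a test. The one change of sign was in Ing5, which was near 0 (-0.02 to 0.02 with the same FPKM sum). Scaling to the same FPKM sum, to the same upper quartile or by length left 2 lower members, without Ing4, and the 2 scalings put the median of all genes at 0.07 and 0.05. Depth limits most the members at low FPKM, and without replicates no value has an error.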
